A study of Homo sapiens with 2 samples.

Results

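Glycolysis and the hypoxia response were followed through 37 genes, chosen by name with earlier results of these data known. They are 17 genes for glycolytic enzymes and 6 for transporters and switches of the pathway. The rest are 9 for other targets of the hypoxia-inducible factors (HIFs) and 5 for HIF subunits and oxygen sensors. Through the RefSeq accession of their array spots, 36 of the 37 genes were matched, out of 21743 genes named on the array, and 35 of them had a ratio between the conditions. ALDOA was not analysed here, because no spot was matched to it, and EGLN3 was not well above background on either array. The cells were MRC-5, a cell line of fibroblasts established from human fetal lung. They received control siRNA or periostin siRNA, each at 10 nM, over 48 h, and the RNA of each condition was hybridized to 1 single-colour Agilent array. Since each condition was read once, the differences below have no replicate check and no test between the conditions is given. RNA was measured in whole cultures, in which fewer cells of a kind and less RNA per cell cannot be told apart.

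Glycolysis splits glucose into pyruvate in the cytosol, and lactate dehydrogenase turns pyruvate into lactate when it is not passed to the mitochondria. HIFs are transcription factors of an oxygen-regulated alpha subunit, encoded by HIF1A, EPAS1 or HIF3A, and a stable beta subunit, ARNT. With oxygen present, the prolyl hydroxylases of the EGLN genes mark the alpha subunit for destruction by the VHL ligase, and HIF1A is known for switching on most genes of glycolysis. Fibroblasts of scarred tissue are known for high glycolysis.

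Knockdown of periostin went with a lower signal for the enzyme that ends fermentation and for the transporters at both ends of the pathway. HIF1A was also lower, whereas EPAS1 was higher. The HIF targets outside glycolysis lay on both sides, 3 lower and 3 higher beyond 2 spot errors. These are 33.3% each, where 17.7% of all genes were lower and 22.6% were higher by that measure. LDHA, which makes lactate from pyruvate, was 2.78-fold lower and PFKP, a phosphofructokinase, was 2.18-fold lower. HIF1A was 2.004-fold lower, and EPAS1, which encodes the other main alpha subunit, was 1.48-fold higher. NDRG1 was 2.03-fold higher and ADM, the gene of the vasodilator adrenomedullin, was 1.69-fold higher, while VEGFA, the vascular growth factor, was 1.803-fold lower. Each ratio rests on 1 array per condition.

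Signals are the background-subtracted intensities, scaled to a common 75th percentile of the arrays, and a log2 ratio is that of periostin siRNA over control siRNA. A gene with several probes was read from its brightest one. A difference is set against the error that the scanner software propagates for a spot. For probes printed 10 times it is also set against the SD between those spots. The propagated error was between 0.20 and 0.23 on the log2 scale for members well above background on both arrays. It was nearly constant, at 0.204 for bright members such as LDHA, GAPDH, PGK1, ADM and HIF1A. For bright genes it thus acts as a nearly fixed cutoff and is not a spread measured for each gene. The SD between spots was smaller, at 0.035 for GAPDH, 0.034 for PGK1, 0.055 for ADM and 0.073 for HIF1A. Neither error covers the difference between cultures. POSTN, the gene targeted by the siRNA, had a signal of 2638 with control siRNA and 280 after knockdown, giving a log2 ratio of -3.24 with a spot error of 0.20. The arrays had 58.0% and 58.9% of the 58717 spots well above background, and 0 were saturated. Of 10 fibroblast markers 10 were measured, with a summed signal of 369333 with control siRNA and 326288 with periostin siRNA. Most of it came from VIM, at 189263 and 174022. The log2 ratio lay below 0 for 7 of these markers and above 0 for 3, from -0.90 for PDGFRA to 0.83 for LUM. Of 8 epithelial markers 4 were measured, and the list summed to 448 and 762. EPCAM, a surface protein of epithelial cells, had signals of 34.6 and 135, and CDH1, SFTPB, NKX2-1 and KRT5 were not well above background on either array. Of 5 endothelial markers 4 gave a ratio and the list summed to 5591 and 5305, most of it from TEK at 5457 and 5175, with PECAM1 not well above background on either array. Of 7 immune markers 4 gave a ratio and the list summed to 1602 and 2522, most of it from CD68. CSF1R was the 1 of these 4 with a lower signal, at 42.1 and 23.7. LAPTM5, HLA-DRA and MS4A1 were not well above background on either array. The part of these cell types in the ratios below was not tested.

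HIFs bind a short core, ACGTG or GCGTG, and its letters were looked for on both strands in the 250 bases before each RefSeq start. Of the 63 windows before members, 37 held either form, as do all those printed below. LDHA and SLC16A3 also have windows that are not printed, and some of those of SLC16A3 hold no match. The 6 windows below were picked among those with a match. They lie before 3 members with a lower signal, LDHA, ENO1 and SLC16A3, and 3 with a higher signal, ALDOC, ADM and EPAS1. Other members on either side have no match in their window, such as SLC2A1 on the lower side and PKM on the higher. They are from RefSeq on GRCh38.p14 and read 5′ to 3′ along the gene, and the capitals mark ACGTG or GCGTG or their reverse complements, CACGT and CACGC, with overlapping matches joined.
LDHA, chr11:18394313-18394562, plus strand: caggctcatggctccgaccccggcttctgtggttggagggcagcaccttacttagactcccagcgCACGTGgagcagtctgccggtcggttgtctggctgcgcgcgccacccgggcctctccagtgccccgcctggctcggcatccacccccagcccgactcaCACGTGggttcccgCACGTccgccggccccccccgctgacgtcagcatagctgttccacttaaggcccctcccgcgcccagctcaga
ENO1, chr1:8878687-8878936, minus strand: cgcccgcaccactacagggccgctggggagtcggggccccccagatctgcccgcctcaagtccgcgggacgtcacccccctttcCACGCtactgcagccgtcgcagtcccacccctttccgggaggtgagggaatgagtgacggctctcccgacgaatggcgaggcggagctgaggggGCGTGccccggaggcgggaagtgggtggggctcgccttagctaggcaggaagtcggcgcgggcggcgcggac
SLC16A3, chr17:82228792-82229041, plus strand: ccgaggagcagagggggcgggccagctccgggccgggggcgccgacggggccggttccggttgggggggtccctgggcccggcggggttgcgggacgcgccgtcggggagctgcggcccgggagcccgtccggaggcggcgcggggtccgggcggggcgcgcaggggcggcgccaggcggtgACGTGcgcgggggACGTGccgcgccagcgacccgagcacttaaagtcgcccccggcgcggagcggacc
ALDOC, chr17:28576896-28577145, minus strand: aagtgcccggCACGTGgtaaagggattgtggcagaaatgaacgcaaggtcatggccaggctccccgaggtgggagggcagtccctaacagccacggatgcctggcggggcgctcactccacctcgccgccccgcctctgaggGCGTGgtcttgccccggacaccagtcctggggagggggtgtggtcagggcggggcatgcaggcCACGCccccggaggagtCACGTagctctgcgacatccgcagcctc
ADM, chr11:10304823-10305072, plus strand: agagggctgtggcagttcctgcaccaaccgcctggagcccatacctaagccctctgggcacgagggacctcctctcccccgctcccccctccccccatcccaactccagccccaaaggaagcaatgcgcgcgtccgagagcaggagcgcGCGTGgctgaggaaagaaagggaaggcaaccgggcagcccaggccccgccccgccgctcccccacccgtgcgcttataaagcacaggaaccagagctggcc
EPAS1, chr2:46297157-46297406, plus strand: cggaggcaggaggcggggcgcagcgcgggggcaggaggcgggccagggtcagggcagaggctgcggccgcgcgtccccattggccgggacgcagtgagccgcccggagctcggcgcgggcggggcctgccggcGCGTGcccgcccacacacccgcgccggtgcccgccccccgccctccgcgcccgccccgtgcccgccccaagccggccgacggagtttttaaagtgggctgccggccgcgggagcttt

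The core stood in windows before members on both sides of the comparison. The shown LDHA window held it in 3 places and that of ALDOC in 4, and LDHA was the lower and ALDOC the higher of these with periostin siRNA. Of 63 windows before 33 of the members, 58.7% held either form, against 43.2% of 35116 windows of the same length before all genes. For ACGTG alone the shares were 33.3% and 18.5%, and for GCGTG 34.9% and 32.2%. Among the other HIF targets 7 of 7 windows held either form. Windows of one gene can overlap, and ACGTG also lies within CACGTG, the E-box, which was found in 12.7% of the member windows and 6.34% of all windows. A match is a stretch of letters and not a site of binding. No window was given for SLC2A3, VEGFA, BNIP3L and NDRG1.

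Among the 16 glycolytic enzymes with a ratio, the median log2 ratio was -0.19, from -1.48 for LDHA to 0.80 for ALDOC, against a median of 0.06 over the 16052 array genes with a ratio. LDHA and PFKP were lower by more than 2-fold, 12.5% of the enzymes against 6.42% of all genes, and 0 enzymes were higher by that much, against 7.97%. Of the 16 enzymes, 14 lie in the 3 brightest of 10 classes by mean signal, where between 2.99% and 4.11% of genes were lower and between 2.37% and 3.55% were higher by more than 2-fold. The log2 ratio lay below 0 for 11 of the 16 genes, and for 45.5% of all genes. Scaling the arrays on their medians, which moved the median of all genes by -0.13, put 14 of the 16 below 0. Log2 ratios beyond 2 spot errors were found for 5 enzymes on the lower side and 2 on the higher, shares of 31.2% and 12.5%, where 17.7% of all genes were lower and 22.6% were higher by that measure.

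The first steps of the pathway differed little between the arrays. HK1, a hexokinase that traps glucose in the cell, had a signal of 2389 with control siRNA and 2068 after knockdown, giving a log2 ratio of -0.21. HK2, its inducible counterpart, went from 2167 to 1788, a log2 ratio of -0.28, and a second probe of HK2 was well above background with control siRNA alone. GPI, which turns glucose phosphate into fructose phosphate, had 17929 and 16786. These differences were all within 2 spot errors. At the committed step, the 3 phosphofructokinase genes did not move together. PFKP, the platelet form, had a signal of 6966 with control siRNA and 3199 after knockdown, giving a log2 ratio of -1.12 on its brighter probe and also -1.12 on a second probe. PFKL, the liver form, had 5708 and 5908, and PFKM, the muscle form, had 5608 and 5789, so that both lay within the spot error. The log2 ratio of PFKP minus that of PFKL was -1.17, and minus that of PFKM it was -1.17, each with an error of 0.29. The ratios of PFKL and PFKM took a negative sign after quantile normalization and with scaling on the median.

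In the middle of the pathway, TPI1, the isomerase of the triose phosphates, was lower and ALDOC, an aldolase, was higher. TPI1 had a signal of 28601 with control siRNA and 19437 with periostin siRNA, and its probes gave -0.56 and -0.57. ALDOC, a form of aldolase best known from brain, had 378 and 659, a log2 ratio of 0.80. GAPDH, the dehydrogenase that also served as the reference of the study's qRT-PCR, was printed 10 times and had spots between 97836 and 108289 with control siRNA and between 100878 and 111106 with periostin siRNA. The spots of the conditions overlapped, and its log2 ratio was 0.04 ± 0.04 (SD over 10 spots), with a negative sign after loess and under scaling on the median. PGK1, which makes the first ATP of the payoff phase, had spots between 18366 and 19782 with control siRNA and between 15921 and 17770 with periostin siRNA. Its spots did not overlap, and the log2 ratio was -0.18 ± 0.03 (SD over 10 spots), which is within the propagated spot error of 0.20. A flag for uneven or outlying pixels was set on 2 of these spots, and the ratio was -0.18 without them. PGAM1, a phosphoglycerate mutase, had 15337 and 15265, a log2 ratio of -0.0067 on one probe and 0.10 on the other. Its near-identical copy PGAM4 gave -0.12, and a probe may not tell these genes apart.

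The last steps held the lowest log2 ratio of the group, that of LDHA. ENO1, the enolase of most tissues, had a signal of 23410 with control siRNA and 13326 after knockdown, giving a log2 ratio of -0.81. ENO2, the enolase of neurons, had 414 and 267, a log2 ratio of -0.64, so that the enolases differed by less than their spot error. PKM, the pyruvate kinase, went the other way, with 27187 and 37349 and a log2 ratio of 0.46. LDHA had 19987 and 7180, a log2 ratio of -1.48 with a spot error of 0.20, and its second probe gave -1.61. Of the 1606 genes in its class of like signal, 1.56% had a lower ratio than LDHA. LDHB, which favours the reaction from lactate to pyruvate, had 47358 and 40446, a log2 ratio of -0.23 on each of its probes. The log2 ratio of LDHA minus that of LDHB was -1.25 with an error of 0.29.

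**Figure D1:**
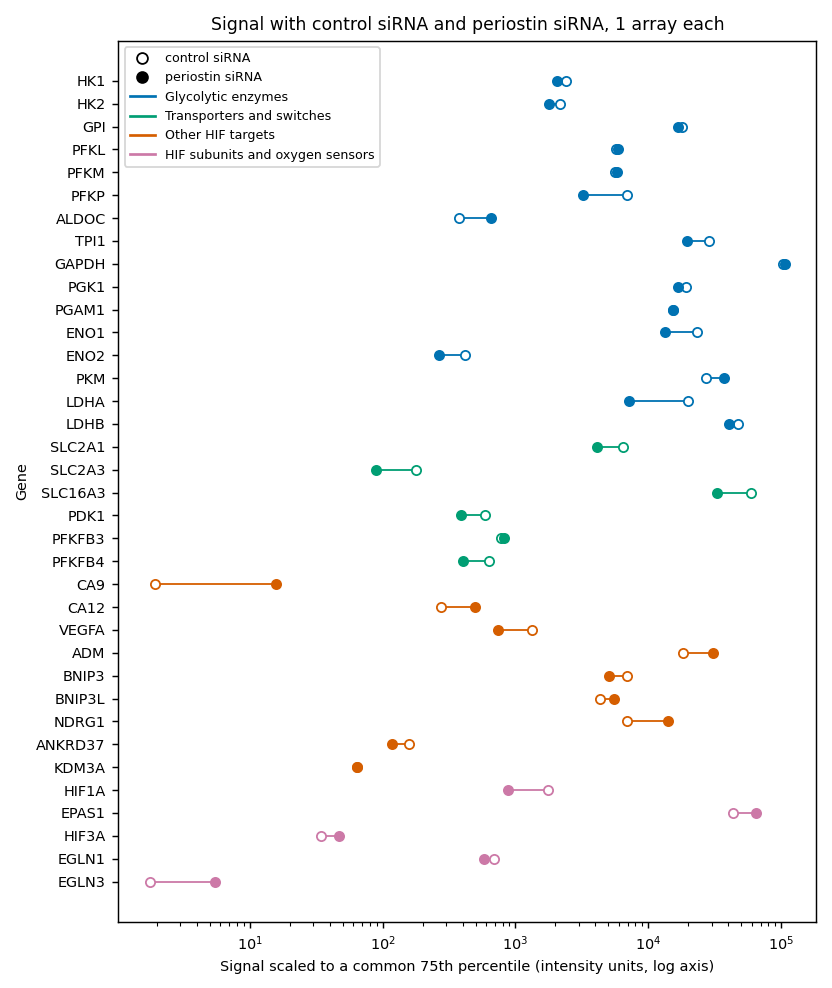
Scaled signal of each of the 36 matched genes on a log axis in intensity units, with an open circle for control siRNA and a filled circle for periostin siRNA, 1 array each, coloured by group. LDHA, PFKP and SLC16A3 lie to the left with periostin siRNA, NDRG1, ADM and EPAS1 lie to the right, and the circles of GAPDH and PFKL nearly coincide. CA9 with control siRNA and EGLN3 on both arrays were not well above background.

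The transporters and switches were lower in 5 of 6 cases, with a median log2 ratio of -0.63. The 5 genes were each lower by more than 1.5-fold, which was the case for 13.7% of all genes, and none was higher by that much. PDK1 and PFKFB4 did not pass 1.5-fold under the normexp correction, with log2 ratios of -0.45 and -0.51, nor did PDK1 without scaling, at -0.55. SLC2A1, the basal glucose transporter, had a signal of 6431 with control siRNA and 4136 after knockdown, giving a log2 ratio of -0.64. SLC2A3, a glucose transporter of high affinity, had 179 and 88.4, a log2 ratio of -1.02, and its dimmer probe gave -1.19. SLC2A14 is a near-identical copy of SLC2A3 which a probe may not tell apart from it, and its own probe gave -0.85. SLC16A3, the exporter of lactate, had 59325 and 32984, a log2 ratio of -0.85. Of the genes of like signal, 4.48% had a lower ratio than SLC16A3.

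The switches act on the flux through the pathway. PDK1, a kinase that keeps pyruvate out of the mitochondria by shutting off pyruvate dehydrogenase, had a signal of 589 with control siRNA and 389 after knockdown, giving a log2 ratio of -0.60. PFKFB4 and PFKFB3 make the fructose bisphosphate that activates phosphofructokinase. PFKFB4 had 629 and 406, a log2 ratio of -0.63, and PFKFB3 had 776 and 823, a log2 ratio of 0.08 that turned negative under scaling on the median. The difference between the log2 ratios, PFKFB4 minus PFKFB3, was -0.72 with an error of 0.29.

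**Figure D2:**
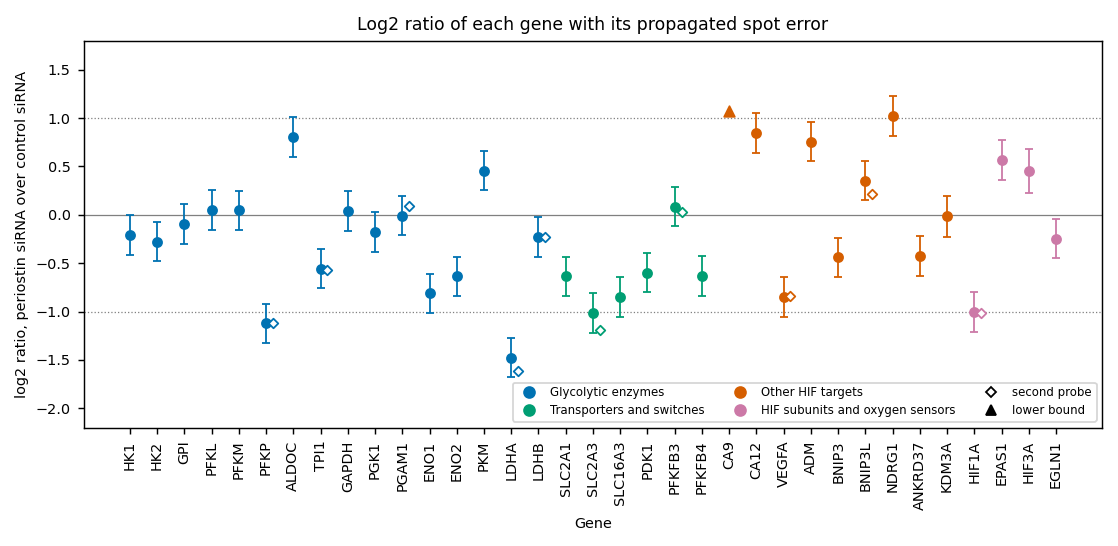
Log2 ratio of periostin siRNA over control siRNA for the 35 genes with a ratio, with the propagated spot error as bars, open diamonds for second probes and a triangle for the lower bound of CA9. Dotted lines mark a 2-fold difference, which LDHA, PFKP, SLC2A3 and HIF1A passed on the lower side and NDRG1 and CA9 on the higher side. The 10 genes with a second probe above background show it apart from the first by up to 0.17.

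The HIF alpha subunits differed in direction. HIF1A was printed 10 times, and its spots had signals between 1616 and 1928, with a median of 1767, with control siRNA, and between 821 and 978, with a median of 870, with periostin siRNA. The spots of the conditions did not overlap, and the log2 ratio was -1.003 ± 0.07 (SD over 10 spots). A second probe gave -1.01. Of the genes of like signal, 4.05% had a lower ratio. EPAS1 had a signal of 43582 with control siRNA and 64602 after knockdown, giving a log2 ratio of 0.57 with a spot error of 0.20. The log2 ratio of HIF1A minus that of EPAS1 was -1.57 with an error of 0.29. HIF3A, whose products can dampen the response, was dim at 34.5 and 47.3, with a log2 ratio of 0.46.

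Of the oxygen sensors, EGLN1, the main prolyl hydroxylase, had a signal of 685 with control siRNA and 578 after knockdown, giving a log2 ratio of -0.24 that lay within 2 spot errors. EGLN3, a strongly hypoxia-induced hydroxylase, was not well above background on either array, with signals of 1.77 and 5.49, so no ratio is given. The median over the 4 genes of this group with a ratio was 0.11, and it was -0.022 under scaling on the median. In a further list of 20 genes that act on HIFs, the median log2 ratio was -0.07 and 0 genes were lower by more than 2-fold, against 6.42% of all genes. ARNT2, a second beta subunit, was the 1 gene that was higher by more than 2-fold, at 1.09, which is 5.0% of the list against 7.97% of all genes. EGLN2, another prolyl hydroxylase, had 1328 with control siRNA and 934 after knockdown, giving a log2 ratio of -0.51. HIF1AN, the asparaginyl hydroxylase that blocks the transactivation of HIFs, had 146 and 280, a log2 ratio of 0.94. VHL gave -0.29 and ARNT 0.24, both within 2 spot errors.

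Of the 9 other HIF targets, 4 lay below 0 and 5 above, 44.4% below against 45.5% of all genes, and their median was 0.35. The median was 0.17 without CA9, whose ratio is a bound. VEGFA had a signal of 1321 with control siRNA and 733 with periostin siRNA, and its probes gave log2 ratios of -0.85 and -0.84. BNIP3, a receptor for the removal of mitochondria, had 6888 and 5082, a log2 ratio of -0.44. ANKRD37, a small ankyrin repeat protein, had 159 and 118, a log2 ratio of -0.42. These 3 were the targets lower by more than 2 spot errors, 33.3% of the list against 17.7% of all genes. KDM3A, a histone demethylase, had 64.6 and 63.8, a ratio of -0.017 that turned positive under the normexp background correction and without scaling.

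On the higher side, NDRG1, a stress-responsive gene that also marks growth arrest, had a signal of 6891 with control siRNA and 13969 after knockdown, giving a log2 ratio of 1.02 with a spot error of 0.20. Of the genes of like signal, 2.30% had a ratio at or above its own. ADM was printed 10 times, with spots between 17366 and 19923, median 18189, with control siRNA, and between 27958 and 33510, median 30690, with periostin siRNA. The spots did not overlap, and the log2 ratio was 0.76 ± 0.06 (SD over 10 spots). CA12, a carbonic anhydrase of the cell surface, had 275 and 495, a log2 ratio of 0.85. CA9, the related enzyme that is a classic mark of hypoxic cells, was well above background with periostin siRNA alone, where its signal was 15.8 against 1.95, and was at least 2.10-fold higher. Its spot error on the log2 scale, 1.47, was larger than this bound, 1.07 on the same scale, which was 0.25 under the normexp correction. BNIP3L, a relative of BNIP3, had 4341 and 5546, and its probes gave 0.35 and 0.21. BNIP3 minus BNIP3L gave a difference in log2 ratio of -0.79 with an error of 0.29. Of the 8 pairs of related genes compared in this way, 6 differed by more than 2 errors, and the pairs HK2 with HK1 and ENO1 with ENO2 did not. The error of a pair comes from the propagated spot errors, was near 0.29 for each pair, and is not a measured spread. The pairs were chosen with the values known.

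Counted over all groups, 4 of the 35 members, LDHA, PFKP, SLC2A3 and HIF1A, were lower by more than 2-fold, a share of 11.4% against 6.42% of all genes. NDRG1 and CA9 were the 2 members higher by more than 2-fold, 5.71% against 7.97% of all genes. These shares of all genes are not matched for signal. In the dimmest of the 10 classes 7.97% of genes were lower and 14.8% higher by more than 2-fold, and in the brightest 2.99% and 2.37%. Of all genes past 2-fold, 55.4% were higher ones, and 45.6% with scaling on the median. At 1.5-fold, 11 members were lower and 5 were higher, which is 31.4% and 14.3%, against 13.7% and 17.6% of all genes. None of the 35 passed the 3-fold threshold that the study used, where 2.75% of all genes were lower and 3.37% were higher. HIF1A, SLC2A3, NDRG1 and CA9 lay just past 2-fold. HIF1A and SLC2A3 were under it without scaling, at -0.96 and -0.97, and under the normexp correction, at -0.93 and -0.65, while NDRG1 was under it with scaling on the median, at 0.89, and after normexp and loess, at 0.99 in each. The bound of CA9 was under it after quantile normalization and with scaling on the median, at 0.94 in each, and under the normexp correction, at 0.25. LDHA and PFKP passed 2-fold under each of the 10 other settings tried, with ranges of -1.61 to -1.43 and -1.25 to -1.08. All settings read the same arrays, and those of dim genes and flagged spots could not change these ratios.

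**Figure D3:**
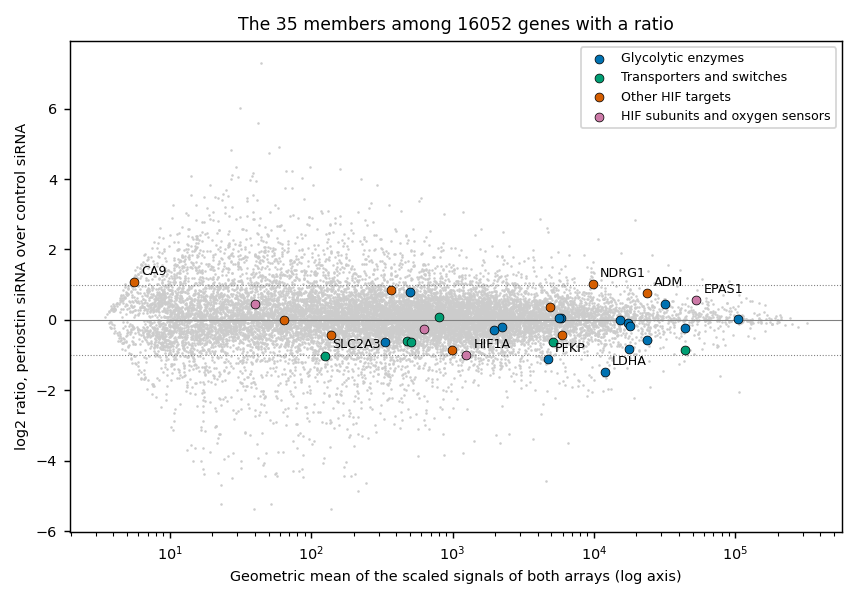
Log2 ratio of periostin siRNA over control siRNA against the geometric mean of the scaled signals on a log axis, for all genes with a ratio in grey and the 35 members in colour. Dim genes on the left spread more widely than bright ones, and LDHA at -1.48 and NDRG1 at 1.02 lie near the edges of the bright genes. Dotted lines mark a 2-fold difference.

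Beyond the 37 genes, lists of other genes of these pathways were read in the same way. Of 35 further genes of glycolysis and glucose transport, 23 had a ratio, with a median of -0.04, and 12 were not well above background on either array. BPGM, which makes bisphosphoglycerate, was the 1 gene lower by more than 2-fold, at -1.13, with signals of 2357 with control siRNA and 1077 with periostin siRNA. Those higher were LDHD, SLC2A12 and PFKFB2. The shares of 4.35% lower and 13.0% higher stand against 6.42% and 7.97% of all genes. LDHD and SLC2A12 lie in class 2 of the 10 signal classes, counted from the dimmest, where 14.6% of genes were higher by more than 2-fold. PFKFB2 lies in class 5, where 5.98% were. LDHD, the mitochondrial dehydrogenase of D-lactate, was well above background with periostin siRNA alone, where its signal was 126, and was at least 16.6-fold higher. SLC2A12, a glucose transporter, had 17.0 and 69.1, a log2 ratio of 2.02, and PFKFB2, of the same family as PFKFB3, had 143 and 315, a log2 ratio of 1.14.

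Of 22 enzymes of pyruvate use and the pentose phosphate pathway, 21 had a ratio, with a median of -0.31. RPIA and PDK4 were the 2 genes lower by more than 2-fold, 9.52% against 6.42% of all genes, and 0 were higher, against 7.97%. They lie in signal classes 6 and 7 of the 10, where 5.30% and 4.05% of genes were lower by more than 2-fold. In these classes 5.36% and 5.30% were higher. RPIA, the isomerase that makes ribose phosphate, had a signal of 1153 with control siRNA and 201 after knockdown, giving a log2 ratio of -2.52 on its single spot. PDK4, a relative of PDK1, had 1496 and 398, a log2 ratio of -1.91.

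Of 52 further HIF targets, 45 had a ratio, with a median of 0.12. By more than 2-fold, 5 were lower and 3 higher, shares of 11.1% and 6.67% against 6.42% and 7.97% of all genes. ERO1A and PPFIA4 were not analysed here. STC1, a secreted hormone, had a signal of 526 with control siRNA and 61.2 after knockdown, giving a log2 ratio of -3.10. IGFBP3, which binds insulin-like growth factors, gave -1.54 ± 0.11 (SD over 10 spots). RIOK3, a kinase, gave -1.22, and INHBA, an activin subunit, gave -1.08 ± 0.06 (SD over 10 spots). On the higher side, PGF, the placental growth factor, had 64.9 and 237, a log2 ratio of 1.87. PPP1R3C, which targets a phosphatase to glycogen, had 1446 and 4972, a log2 ratio of 1.78. ZNF395, a zinc finger protein, gave 1.01. With 20 genes below 0 and 25 above, 44.4% of the list lay below 0, close to the 45.5% of all genes.

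**Figure D4:**
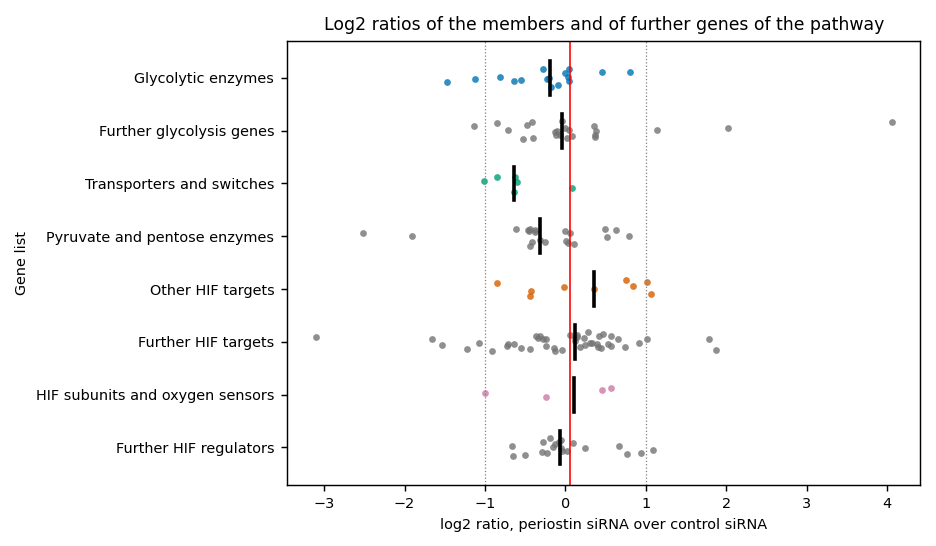
Log2 ratio of periostin siRNA over control siRNA for the genes of 8 lists, with 1 point per gene, the 37 genes' groups in colour and the further lists in grey. Black bars are list medians, from -0.63 for the transporters and switches to 0.35 for the other HIF targets, the red line is the median of all genes at 0.06, and dotted lines mark a 2-fold difference. The point at the far right is the bound of LDHD.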

How the data were processed

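Total RNA, 1 sample per condition, was labelled with Cy3 and hybridized to an Agilent SurePrint array annotated on hg19. The authors deposited the scanner files, with an intensity per spot from which the software had subtracted a detrended background, not scaled between arrays. The file headers name Feature Extraction 11.5.1.1, whereas the submitters' processing notes name 12.0.3.1. A further deposited table holds normalized intensity values of the authors, whose method is not given in the sources used here. For 49697 probes printed once, 100% of its values were within 0.01 on the log2 scale of the scanner value times 1 constant per array. For these probes the table thus differs from the scanner values in scaling alone. The median log2 ratio of all genes was 0.0548 with it, against 0.0553 with the scaling used here.

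Signals were taken as log2 minus the 75th percentile over 58717 non-control spots, 372 for control siRNA and 383 for periostin siRNA, and are printed on a common scale. Repeated spots were averaged as log2 values, and the brightest probe stood for a gene. A probe counted as well above background if 50% or more of its spots were so flagged. If only 1 array met this, the ratio is a bound. It is taken against the other array's lowest spot signal above background or the dim probe's signal there, whichever is higher. RefSeq GRCh38.p14 named 65.1% of the spots through their accession. Genes of like signal are those in the same of 10 classes by mean signal.

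The members and lists were chosen with earlier results of these data known. All 37 members are named, with POSTN, the 12 genes of the further lists with the largest difference past 2-fold, except for an item that is not reported here, and EGLN2, VHL, HIF1AN and ARNT. INHBA, ARNT2, ZNF395, SLC2A14, PGAM4 and the marker genes were named after their values were seen. The steps were tested on simulated data. The number of arrays, 1 per condition, limits the precision. Python 3.11.15, numpy 2.4.6, pandas 2.3.3, matplotlib 3.10.9 and R 4.3.3 with limma 3.58.1 were used. Alternatives tried were normexp with an offset of 50, quantile normalization, values left unscaled, scaling on the median or on the spots bright on both arrays, loess with a span of 0.3, the table of the authors, all probes of a gene averaged, only genes well above background on both arrays, no flagged spots, 1.5-fold or 3-fold as the threshold, and the enzymes without GAPDH. The other experiments of the study, such as qRT-PCR, were not used here.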

Additional observations from a re-analysis of the deposited data

How the results depend on the processing

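No paired analysis was possible because there is a single array per condition, which also leaves no replicate to omit. Of the 35 members with a ratio, 29 kept their sign under the 10 settings of background, scaling, probe and flag. CA9 was given by 8 of these settings. The sign changed for PFKL, PFKM, GAPDH, PGAM1, PFKFB3 and KDM3A, all within the spot error. For a gene bright on both arrays with 1 probe and 1 unflagged spot, the settings of probe, dim genes and flag cannot change the ratio. The table of the authors and the scaling on bright spots shifted the median of all genes by only -0.0005 and 0.0023. Scaling on the median gave medians of -0.32 for the glycolytic enzymes, -0.76 for the transporters and switches, 0.22 for the other HIF targets and -0.022 for the HIF regulators, with 0 members higher by more than 2-fold and a POSTN ratio of -3.37. The normexp correction gave 2 members lower and 0 higher by more than 2-fold and a POSTN ratio of -2.99, and without scaling 2 members were lower. Quantile normalization, loess, the mean over probes and the filter on dim genes each left 1 member higher, and the last 2 gave medians of 0.13 and 0.17 for the other HIF targets. At 3-fold 0 members were lower and 0 higher, and at 1.5-fold 11 and 5. Signals near background limit CA9, EGLN3 and HIF3A.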
